A study of Rattus norvegicus with 24 samples.

Results

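The arrays described here compared kidney RNA between rats on low and on high salt in the SS-13BN/Mcw strain, at 3 days after the change of salt. They were chosen by their titles, which set "13LS" against "13HS" at 3 days, and they are 6 of the 24 arrays of the series. The 6 arrays hold 3 pairs of rats, each pair hybridised in both dye orientations, so that n = 3 pairs. SS-13BN/Mcw is a consomic rat, with chromosome 13 of the Brown Norway (BN) strain on the background of the Dahl salt-sensitive (SS) strain. The other groups used below are SS-13BN/Mcw rats overnight after the change (6 arrays, 3 pairs) and SS rats at 3 days (6 arrays, 3 pairs). The low-numbered rats of the overnight and the 3-day pairs of SS-13BN/Mcw carry the same numbers, so these times share rats. The labels give the tissue as rat kidney, with no region, age, sex or salt content, and they do not say which rat of a pair had which diet.

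The kidney's proximal tubule reabsorbs most of what the glomerulus filters, through a brush border rich in peptidases and carriers and through megalin-driven endocytosis. It also holds much of the organ's machinery for amino acid breakdown, glutathione use and the handling of foreign compounds. Further along, the thick ascending limb and the collecting duct set the final salt content of the urine. In the collecting duct the epithelial sodium channel takes up sodium and the Na,K-ATPase moves it to the blood. The 11-beta-hydroxysteroid dehydrogenases of the kidney influence how much glucocorticoid reaches the receptors. The Dahl SS rat is a classic model of salt-sensitive hypertension, and the consomic strain is known for a blunted form of it.

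Each value is a log ratio between the rats of a pair. Neither the base of the logarithm nor the rat in the numerator is stated, so values are given without folds, and a positive or negative sign says nothing of which diet had more transcript. Both arrays of a pair were taken to give the ratio in the same rat-to-rat direction. An array of the group held values for 919 to 1205 probes, against 877 to 1412 over all 24 arrays. Of 1486 probes with a value on any of the 6 arrays, 753 had one on all of them. A probe was tested where at least 2 pairs had both orientations, which left 907 probes for 770 named genes. Since the table holds ratios only, a marker with a value shows that its spot was read, not how abundant the transcript was. The labels do not name separate litters or cages, so p-values measure the spread between these rat pairs, and precision is limited by how few arrays there are.

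The question of this comparison is which kidney genes differ between the low-salt and high-salt rats of SS-13BN/Mcw after 3 days. The clearest values were those of proximal tubule genes, which lay far on the negative side: Kap at -1.71 ± 0.23, the peptidase Anpep at -1.62 ± 0.40 and the glutathione transferase Gsta2 at -1.48 ± 0.19 (mean ± SD, n = 3 pairs). The positive side held fewer and smaller values, led among those past the threshold by Pdgfa at 0.44 ± 0.29 (n = 3). By limma with Benjamini-Hochberg adjustment over the 907 probes, 27 passed an adjusted p of 0.05, which is 2.98 percent of those tested. Of these, 21 were negative (2.32 percent) and 6 positive (0.662 percent), and 25 carried a gene symbol. The 2 probes without a symbol stood at -1.37 in 2 pairs and at -0.53 in 3 pairs. An unadjusted p under 0.05 was found for 151 probes, 16.6 percent (59 positive, 92 negative).

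Each of the 27 probes had the same sign in every measured pair, and 22 had it on every measured array, 19 of the negative and 3 of the positive ones. These probes were picked by the same pair values, so their like signs add no support. The share over all probes was not counted. Means below -1 were found for 11 of the 907 probes, and a mean above 1 for 0. Below -0.5 there were 34 probes and above 0.5 only 2, while the median over all probes was -0.003. The count of 27 fell to 0 without rat pair 2 (144 probes with an unadjusted p under 0.05) and to 0 without rat pair 3 (60 such probes), and it rose to 50 without the third overnight pair of SS-13BN/Mcw, which enters through the shared spread. It was 61 with arrays scaled to one spread, 64 with quantile normalization, 58 in a fit to single arrays and 299 with arrays turned by their dye. The fit to single arrays takes both swapped arrays of a pair as values, in a block by pair, and so adds no rats.

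**Figure D1:**
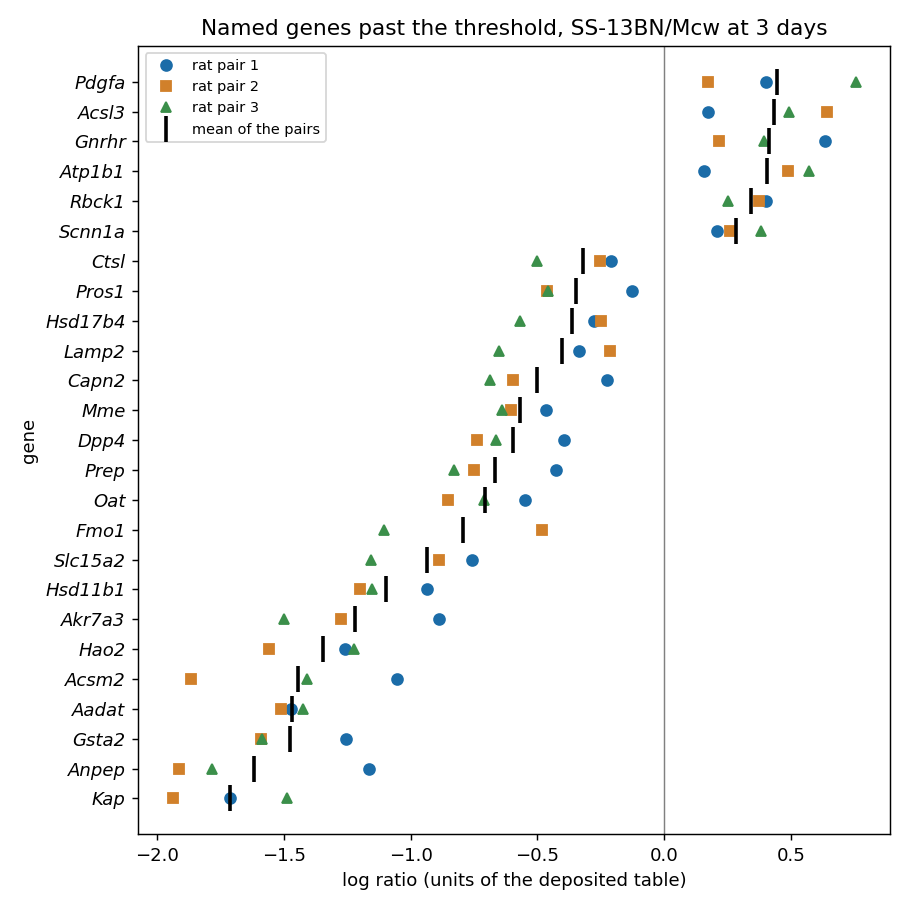
Log ratio of each rat pair (points) and mean of the pairs (bars) for the 25 named genes past the threshold, in units of the deposited table. The 19 negative genes have every pair below 0 and the 6 positive ones every pair above it, and Fmo1 was measured in 2 pairs.

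Proximal tubule brush border and uptake genes were the list with the lowest median. Of its 34 genes 10 were tested, 8 were negative and 2 positive, and 5 passed, all negative. The median was -0.69, against -0.006 over the 770 genes tested, of which 396 were negative and 374 positive, with 19 and 6 past the threshold. An unadjusted p under 0.05 was found for 9 of the 10, the 8 negative genes and Aqp1, which was positive. Over all probes the share was 16.6 percent, and the list as a whole was not tested. In whole-tissue RNA, fewer cells of a type and less RNA per cell cannot be told apart.

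Kap, the kidney androgen-regulated protein of proximal tubule cells, stood at -1.71, -1.94 and -1.49 in pairs 1, 2 and 3 (adjusted p = 0.00853). On single arrays its lowest value was -2.05 and its highest -1.44, so no array came near 0. Anpep, the aminopeptidase N of the brush border, stood at -1.16, -1.91 and -1.78 (adjusted p = 0.0207). Its arrays were more negative in the orientation with the low-numbered rat in Cy3 (-1.67, -2.35 and -2.07) than in the other (-0.65, -1.47 and -1.50), yet negative in both. Slc15a2, a carrier of small peptides, stood at -0.76, -0.89 and -1.16 (adjusted p = 0.0146). Dpp4, a dipeptidyl peptidase, stood at -0.39, -0.74 and -0.66 (adjusted p = 0.0202). Mme, the membrane peptidase neprilysin, stood at -0.47, -0.60 and -0.64 (adjusted p = 0.0367). In Slc15a2 and Mme, as in Dpp4, pair 1 had the value nearest 0.

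The remaining members of the list did not pass. Lrp2, the endocytic receptor megalin, had -0.98 and -1.03 in the 2 pairs that measured it. Ggt1, a glutathione-cleaving enzyme of the brush border, had -0.81, -0.21 and -1.35 (adjusted p = 0.14), and alkaline phosphatase Alpl had -0.35, -0.19 and -1.11, so that both were spread widely with pair 3 lowest. On the other side, the metalloprotease Mep1b averaged 0.13, and the water channel Aqp1 had 0.12, 0.14 and 0.30 (adjusted p = 0.158). The negative calls of the list were thus Kap, 3 peptidases and a peptide carrier, while the water channel of the same cells lay above 0 in every pair.

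Enzymes of amino and organic acid breakdown included Aadat, which had the smallest SD between pairs of the 25 named genes past the threshold. Of 16 tested, 13 were negative and 3 positive, 3 passed, all negative, and the median was -0.15. Aadat, an aminotransferase of lysine and kynurenine breakdown, stood at -1.47, -1.51 and -1.43 (SD 0.043, adjusted p = 0.0146). Its 6 arrays ran from -1.63 to -1.27, so dye orientation hardly moved it. Hao2, a peroxisomal hydroxyacid oxidase, stood at -1.26, -1.56 and -1.23 (adjusted p = 0.0202). The acyl-CoA synthetase Acsm2, which serves glycine conjugation, stood at -1.05, -1.87 and -1.41 (adjusted p = 0.0351), with pair 2 lowest. Agxt2, a mitochondrial aminotransferase, had -0.86 and -1.23 in 2 pairs and did not pass (adjusted p = 0.115). Apart from Gatm, which makes the precursor of creatine and had -0.18 and -0.64 in 2 pairs, the other members ran from Glud1 at -0.24 to Got1 at 0.16.

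Oat, which converts ornithine in mitochondria and was not on that list, passed with -0.55, -0.85 and -0.71 (adjusted p = 0.0287). Glul, glutamine synthetase, at -0.52 ± 0.24, and Ahcy, which cleaves adenosylhomocysteine, at -0.55 ± 0.12 (both n = 3), were among the next negative genes by p and did not pass (adjusted p = 0.0943 and 0.0591).

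Of the xenobiotic and steroid metabolising enzymes 19 were tested, 14 were negative and 5 positive, and 3 passed, all negative, with a median of -0.19. Gsta2, an alpha-class glutathione transferase, stood at -1.25, -1.59 and -1.59 (adjusted p = 0.0146). Akr7a3, an aldehyde reductase, stood at -0.89, -1.28 and -1.50 (adjusted p = 0.0146), and every one of its arrays was at or below -0.88. Fmo1, a flavin-containing monooxygenase, was measured in 2 pairs, at -0.48 and -1.11 (adjusted p = 0.0393). Cyp2c23, an arachidonic acid epoxygenase of rat kidney, had -0.78 and -0.89 in 2 pairs (adjusted p = 0.0825), and Sult1a1, a sulfotransferase, had 0.25, 0.11 and 0.40. The enzymes tested thus lay on both sides, with each call negative.

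Among genes of glutathione synthesis and use, 11 of 12 tested were negative and 1 positive, with a median of -0.31, but Gsta2 was the 1 member that passed. Gss, glutathione synthetase, averaged -0.41 ± 0.21 (adjusted p = 0.14), superoxide dismutase Sod1 -0.41 ± 0.24 (adjusted p = 0.192) and peroxiredoxin Prdx6 -0.48 ± 0.44 (adjusted p = 0.208), each in 3 pairs. In these genes pair 3 was lowest, as in Ggt1. The list's median was -0.13 in pair 1, -0.20 in pair 2 and -0.55 in pair 3.

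A further 5 negative calls, none of them in a gene list, were of genes with differing roles. Prep, a cytosolic prolyl peptidase, stood at -0.43, -0.75 and -0.83 (adjusted p = 0.0207). Capn2, the large subunit of a calpain, stood at -0.23, -0.60 and -0.69 (adjusted p = 0.0353), Lamp2, a lysosomal membrane protein, at -0.34, -0.21 and -0.65 (adjusted p = 0.0273), and the lysosomal protease Ctsl at -0.21, -0.25 and -0.50 (adjusted p = 0.0393). Pros1, the anticoagulant protein S, stood at -0.13, -0.46 and -0.46 (adjusted p = 0.0393) and was positive on 1 of its 6 arrays. Pair 3 was lowest in Prep, Capn2, Lamp2 and Ctsl. With the spread taken from the 3 pairs of this group alone, Lamp2, Ctsl and Pros1 did not stay past the threshold (adjusted p = 0.0766, 0.0952 and 0.0924).

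Fatty acid genes went to both sides. Of 25 tested, 14 were negative and 11 positive, with 1 call on each side and a median of -0.02. Hsd17b4, a multifunctional enzyme of peroxisomal beta-oxidation, stood at -0.28, -0.25 and -0.57 (adjusted p = 0.0434). Acsl3, a long-chain acyl-CoA synthetase, stood on the positive side at 0.17, 0.64 and 0.49 (adjusted p = 0.0293). Its relative Acsl1 had 0.13, 0.24 and 0.58 without passing (adjusted p = 0.0852), whereas Amacr, a peroxisomal racemase, had -0.41, -0.62 and -1.26 (adjusted p = 0.0595, and 0.0401 with pairs blocked by low-numbered rat). Acsl5 averaged 0.20, with 0.22, 0.04 and 0.34 in the pairs, and Acsl4 averaged -0.09, with 0.15, -0.28 and -0.13. Of the long-chain synthetases named here, Acsl4 alone had a negative mean, and its pairs differed in sign. An unadjusted p under 0.05 was found for 15 of the 25, against 16.6 percent of all probes.

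**Figure D2:**
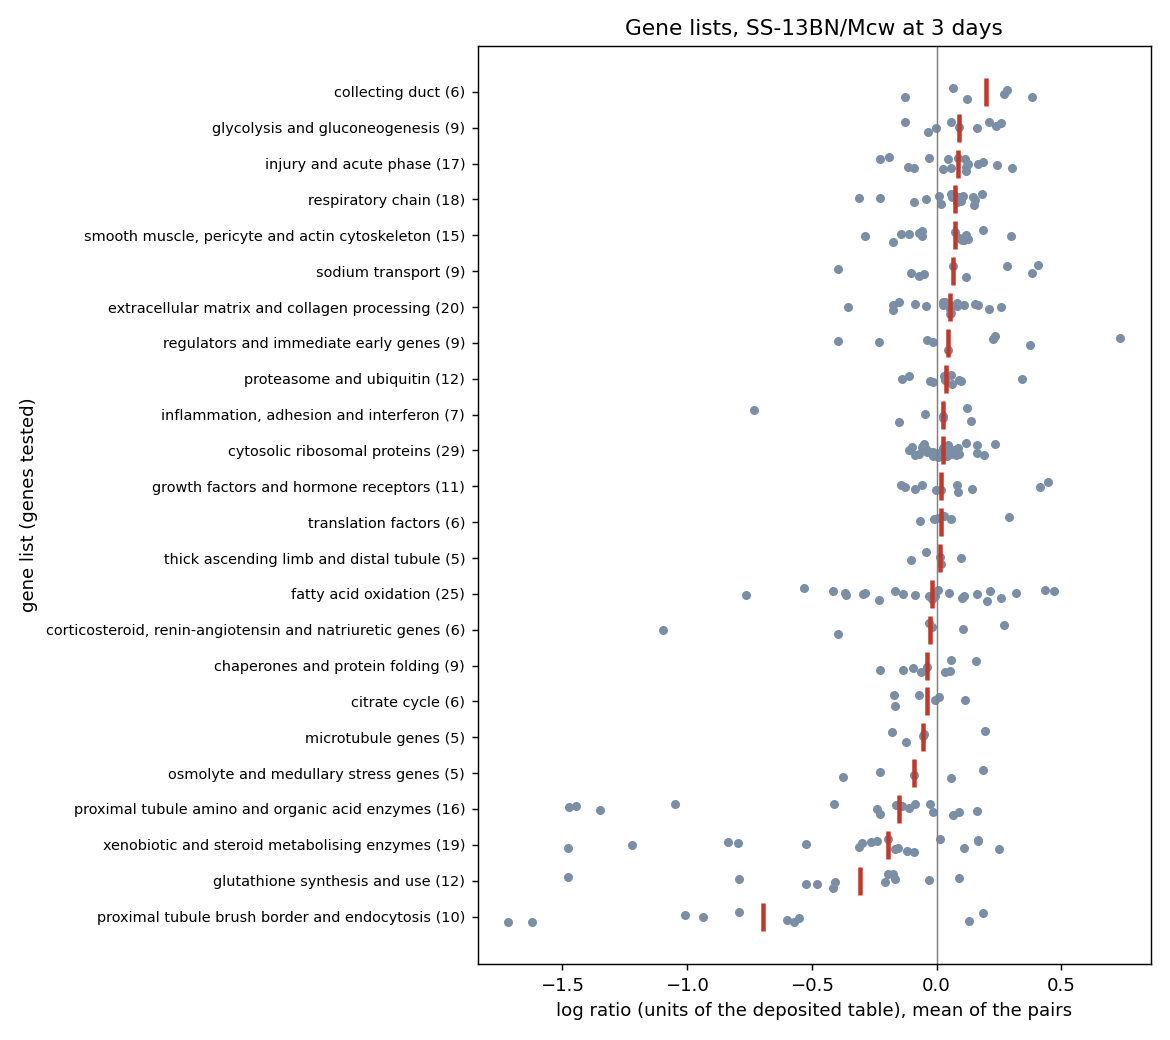
Mean log ratio over the pairs for each tested gene (points) and the median of each list (bars) for lists with at least 5 genes tested, in units of the deposited table. The brush border list has the lowest median, -0.69, and most other lists lie around 0.

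Promoter sequences are shown for Kap, Anpep and Akr7a3, the genes past the threshold on the negative side whose promoters held the core motif of HNF1, a transcription factor of proximal tubule cells. Sequences were taken from RefSeq (GRCr8, 250 bases before to 50 after the start), where 18 of the 19 negative and 4 of the 6 positive named genes had an entry. The motifs, 3 in number, were searched on both strands: the HNF1 core motif GTTAAT, the HNF4 site as CAAAGTCCA or CAAAGGTCA, and the steroid receptor core motif AGAACA, whose other strand reads TGTTCT. Capitals mark a match to the first or the last of these.
Kap promoter, chr4:168408983-168409282, minus strand: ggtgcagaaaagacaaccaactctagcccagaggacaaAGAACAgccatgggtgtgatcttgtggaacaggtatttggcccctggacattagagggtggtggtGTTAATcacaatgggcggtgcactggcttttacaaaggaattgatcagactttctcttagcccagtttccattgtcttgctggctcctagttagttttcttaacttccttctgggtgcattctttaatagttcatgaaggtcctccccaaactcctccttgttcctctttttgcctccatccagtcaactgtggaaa
Anpep promoter, chr1:143195052-143195351, minus strand: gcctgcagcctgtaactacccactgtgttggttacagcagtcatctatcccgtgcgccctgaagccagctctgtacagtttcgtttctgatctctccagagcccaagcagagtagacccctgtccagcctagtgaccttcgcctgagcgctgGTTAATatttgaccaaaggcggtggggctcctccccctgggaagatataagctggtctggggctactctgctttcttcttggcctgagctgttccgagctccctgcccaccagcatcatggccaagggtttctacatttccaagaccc
Akr7a3 promoter, chr5:156876471-156876770, plus strand: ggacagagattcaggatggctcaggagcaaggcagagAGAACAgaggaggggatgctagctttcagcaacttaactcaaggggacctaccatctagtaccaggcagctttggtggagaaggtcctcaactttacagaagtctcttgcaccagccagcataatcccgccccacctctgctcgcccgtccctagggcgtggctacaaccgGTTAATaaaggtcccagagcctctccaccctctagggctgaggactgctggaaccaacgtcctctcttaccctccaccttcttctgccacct

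The HNF1 core motif lay 147 bases before the start in Kap, 98 in Anpep and 42 in Akr7a3. It occurred in 3 of the 18 negative promoters (16.7 percent), in 30 of the 637 promoters of tested genes (4.71 percent) and in 2024 of all 27457 promoters of the table (7.37 percent). The steroid receptor core motif occurred in 6 of 18 (33.3 percent), namely Acsm2, Akr7a3, Fmo1, Hsd17b4, Kap and Slc15a2, against 13.2 percent of tested genes and 20.1 percent of all. No HNF4 match was found in the 18, where 1.26 percent of tested genes had one, and the 4 positive promoters held 0 matches to any of them. A match is a description of letters in this window, and with 18 promoters the shares are coarse.

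Corticosteroid handling had 1 of the 2 lowest adjusted p-values of the comparison. Hsd11b1, the dehydrogenase that regenerates active glucocorticoid, stood at -0.94, -1.20 and -1.15 (-1.10 ± 0.14, adjusted p = 0.00853). All 6 of its arrays were negative, from -1.41 to -0.50, with the value nearest 0 in pair 1. Hsd11b2, which inactivates glucocorticoid in the collecting duct, lay on the other side at 0.26, 0.06 and 0.49 without passing (adjusted p = 0.155). Both receptors were near 0, the glucocorticoid receptor Nr3c1 at -0.03 ± 0.24 and the mineralocorticoid receptor Nr3c2 at -0.02. Sgk1, a kinase induced by these hormones, had -0.44, -0.31 and -0.43 in a narrow range without passing (adjusted p = 0.114). Of the 6 genes of this list that were tested, 4 were negative and 2 positive, and Hsd11b1 alone passed.

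Sodium transport genes held 2 of the 6 positive calls. Scnn1a, the alpha subunit of the epithelial sodium channel, stood at 0.21, 0.26 and 0.38 (adjusted p = 0.0293) and was positive on all 6 arrays, from 0.13 to 0.53. Atp1b1, the beta-1 subunit of the Na,K-ATPase, stood at 0.16, 0.49 and 0.57 (adjusted p = 0.0351) and was at -0.02 on 1 array. The other members did not pass. Fxyd2, a regulator of that pump, averaged 0.12, Atp1b3 -0.07, the thick limb cotransporter Slc12a1 -0.10, Slc12a2 -0.05 and Fxyd4 0.06. The anion exchanger Slc4a1 had 0.21 and 0.55 in 2 pairs. Sgk1, also on this list, averaged -0.39 and was negative on all 6 arrays. In all, 5 of 9 tested were positive and 4 negative, with a median of 0.06 that came to -0.002 without pair 3.

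For the thick ascending limb and distal tubule 5 genes were tested, 2 negative and 3 positive, with a median of 0.01, and by limma 0 passed (0 also at an unadjusted p under 0.05). Umod, the uromodulin of the thick limb, averaged 0.10 ± 0.25 and Egf 0.02 ± 0.07 (n = 3). For the collecting duct 5 of 6 were positive, with Scnn1a past the threshold and a median of 0.20. The water channel Aqp3 had -0.09, 0.07 and 0.39, and carbonic anhydrase Car2 was the negative member at -0.13. Pair 3 had the highest value for Scnn1a, Hsd11b2, Slc4a1 and Aqp3, the pair that was also lowest for many tubule enzymes.

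The remaining positive calls were genes of signalling and protein modification. Pdgfa, a growth factor for mesenchymal cells, stood at 0.40, 0.17 and 0.76 (adjusted p = 0.0273). Gnrhr, the receptor of gonadotropin-releasing hormone, stood at 0.63, 0.22 and 0.40 (adjusted p = 0.0428, and 0.0559 with pairs blocked by low-numbered rat). Rbck1, a subunit of the linear ubiquitin ligase, stood at 0.40, 0.38 and 0.25 (adjusted p = 0.0146), but its arrays ran from -0.07 to 0.83. Among 11 growth factors and hormone receptors tested, 6 were positive and 5 negative, and Pdgfa and Gnrhr were the members that passed. When the spread was taken from the 3 pairs of this group alone, 0 of the 6 positive named genes and 14 of the 19 negative ones (all but Lamp2, Ctsl, Pros1, Fmo1 and Hsd17b4) stayed past the threshold, with adjusted p from 0.059 (Rbck1) to 0.0952 (Scnn1a) for the positive ones.

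Some further genes lay above 0 on all 6 arrays without passing. Hk1, a hexokinase, had 0.25, 0.27 and 0.26, an SD of 0.011 (adjusted p = 0.0633). Aldoa, an aldolase of glycolysis, averaged 0.24 ± 0.09, beta-actin Actb 0.30 ± 0.08, the metallothionein Mt3 0.47 ± 0.13 and Ddit3, a stress-induced transcription factor, 0.22 ± 0.05 (n = 3 each, adjusted p = 0.0866, 0.0837, 0.133 and 0.148). Egr1, an immediate early gene, had the highest mean of all probes at 0.73, from 0.48, 1.28 and 0.45, but its adjusted p was 0.397. Of 9 genes of glycolysis and gluconeogenesis tested, 6 were positive, and by limma 0 passed and 2 had an unadjusted p under 0.05.

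Matrix and injury genes had 0 calls by limma, with 1 gene of each list at an unadjusted p under 0.05. Of 20 extracellular matrix genes tested 14 were positive and 6 negative, with a median of 0.05 that came to -0.007 without pair 3. Col1a1, a fibrillar collagen, stood at 0.03 and Col3a1 at -0.09, Timp1, an inhibitor of metalloproteinases, at 0.16 ± 0.07, and decorin, Dcn, had -0.44, -0.44 and -0.18. Of 17 injury and acute phase genes 12 were positive, with a median of 0.09: the metallothionein Mt2A averaged 0.30 ± 0.08 (adjusted p = 0.115), clusterin, Clu, -0.03 ± 0.12 and osteopontin, Spp1, 0.03 ± 0.07. Respiratory chain genes were positive in 14 of 18 with a median of 0.07, and ribosomal protein genes in 18 of 29 with a median of 0.03, with 0 calls in either and 0 and 1 genes at an unadjusted p under 0.05.

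Markers of other cells a kidney sample can hold were few. For podocytes 0 of 11 listed genes were tested. The endothelial receptor Kdr averaged 0.20 (pairs at 0.25, -0.06 and 0.41), and the adipocyte carrier Fabp4 -0.04 (pairs at -0.32, -0.18 and 0.37). For macrophages and lymphocytes 3 of 31 were tested, from -0.08 to 0.09, and for blood cells 4 of 14, from -0.12 (S100a8) to 0.38 (Slc4a1). Fabp4, Kdr and the beta-globin Hbb were highest in pair 3, and their part in the other values of that pair was not tested. RT1-A1, a class I histocompatibility gene, had -0.22, -0.35 and -1.63 and did not pass (adjusted p = 0.293).

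The 3 pairs were alike across probes. Pearson's r between pair values was 0.602 to 0.622, a description over probes that share arrays and have no independence. With arrays turned by dye, r between pairs was 0.511 to 0.778, so agreement between pairs does not show whether arrays should be turned. Pair 3 had the widest values, with an SD over probes of 0.34, against 0.22 in pair 1 and 0.25 in pair 2. The negative calls had a median of -0.65 in pair 1, -0.80 in pair 2 and -1.11 in pair 3, and the positive calls 0.30, 0.32 and 0.44. Over the 701 probes measured in all 12 pairs of the series, the median SD between pairs was 0.126 here, 0.136 overnight in the same strain and 0.145 in SS at 3 days.

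Single arrays of a pair differed with dye orientation. The swapped arrays of a pair had an r of -0.06 to 0.55, and 0.394 to 0.561 once the mean of the other arrays of the same orientation was removed. The deviation of either orientation from their mean was larger than the mean of the pairs in 515 of 907 probes and in 0 of the 27 past the threshold. Since the 27 were picked by a large mean on these arrays, the 0 does not show that they are free of dye effects. Arrays of the same orientation had an r of 0.614 to 0.678 with the low-numbered rat in Cy3 and 0.372 to 0.649 with it in Cy5.

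**Figure D3:**
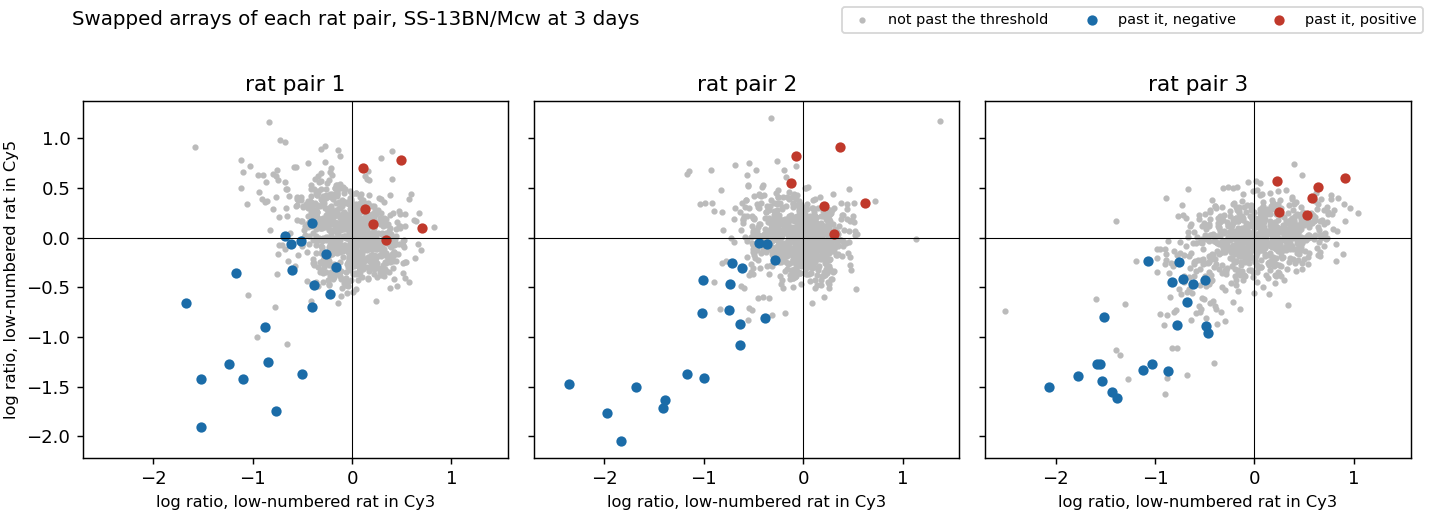
Log ratios of the swapped arrays of each rat pair, with the low-numbered rat in Cy3 on the horizontal and in Cy5 on the vertical axis, in units of the deposited table. Probes past the threshold (21 negative, 6 positive) lie mostly in the quadrants where both orientations have the same sign, while the grey cloud of the others in pair 1 runs from upper left to lower right. The former were picked by the means of these arrays, so their place adds no support.

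The next comparison asks how the values at 3 days differ from those overnight in the same strain. The smallest p on each side belonged to Hsd11b1, with a difference of -0.94 ± 0.23 (3 days minus overnight, ± SE), and Hpd, an enzyme of tyrosine breakdown, with 0.62 ± 0.13, but limma called 0 of 897 probes (0 percent; 101 or 11.3 percent with an unadjusted p under 0.05). A fit to single arrays called 8, 5 of them positive. As it counts both swapped arrays of a pair, its smaller p-values rest on no further rats. Both times share the low-numbered rats, so values of each time are set side by side.

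Hsd11b1 stood at 0.08, -0.24 and -0.33 overnight, all nearer 0 than its 3-day values (adjusted p = 0.276 for the difference, and 0.0297 in the fit to single arrays). Scnn1a was at -0.08, -0.01 and -0.16 overnight and positive in every pair at 3 days, a difference of 0.37 ± 0.09 (adjusted p = 0.276). Hsd11b2 went the same way, from -0.13, -0.32 and -0.24 overnight, with a difference of 0.50 ± 0.13 (adjusted p = 0.276). Genes of the collecting duct list had a median of -0.09 overnight and 0.20 at 3 days. The pair values of the times did not overlap in any of the 10 genes named for this difference, Scnn1a and Hsd11b2 among them. These genes were picked by their small p, so the lack of overlap adds no support. Its share over all probes was not counted.

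The other positive differences were in Pdgfa at 0.49 ± 0.13 and in the glucagon receptor Gcgr at 0.62 ± 0.15, whose overnight pairs were at -0.40, -0.44 and -0.75 and whose 3-day mean was 0.08. Besides Hsd11b1, the negative differences named were in genes that were above 0 in every overnight pair. Timp1 had 0.61, 0.55 and 0.97 overnight, Clu 0.59, 0.69 and 0.41, and Serpinh1, a collagen chaperone, 0.50, 0.40 and 0.70. Their differences were -0.55 ± 0.13, -0.59 ± 0.15 and -0.48 ± 0.14 (adjusted p = 0.276, 0.276 and 0.282). The tubulin Tubb5 differed by -0.43 ± 0.12 (adjusted p = 0.276), with single arrays at 3 days from -0.77 to 0.61. The medians of the matrix list were 0.25 overnight and 0.05 at 3 days, and those of the injury list 0.29 and 0.09.

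The 4 tubule enzymes and peptidases named next were negative in every pair at both times. As the times share the low-numbered rats, these like signs are not independent. Aadat averaged -1.70 ± 0.76 overnight and -1.47 ± 0.04 at 3 days, Anpep -1.84 ± 0.76 and -1.62 ± 0.40, Hao2 -1.58 ± 0.89 and -1.35 ± 0.18, and Akr7a3 -1.31 ± 0.80 and -1.22 ± 0.31 (n = 3 pairs each). The differences for these 4 genes ran from 0.09 to 0.23 with SE of 0.31 to 0.45. The medians of whole lists differed more in places, with the amino and organic acid enzymes at -0.55 overnight and -0.15 at 3 days. Fmo1, measured in 2 pairs at each time, had the wider spread at 3 days (SD 0.04 overnight, 0.44 at 3 days). Overnight the third pair was lowest in each of Aadat, Anpep, Hao2 and Akr7a3, down to -2.59 in Hao2. Of these 4 genes, the 3-day pair with the same low-numbered rat was lowest in Akr7a3 alone.

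**Figure D4:**
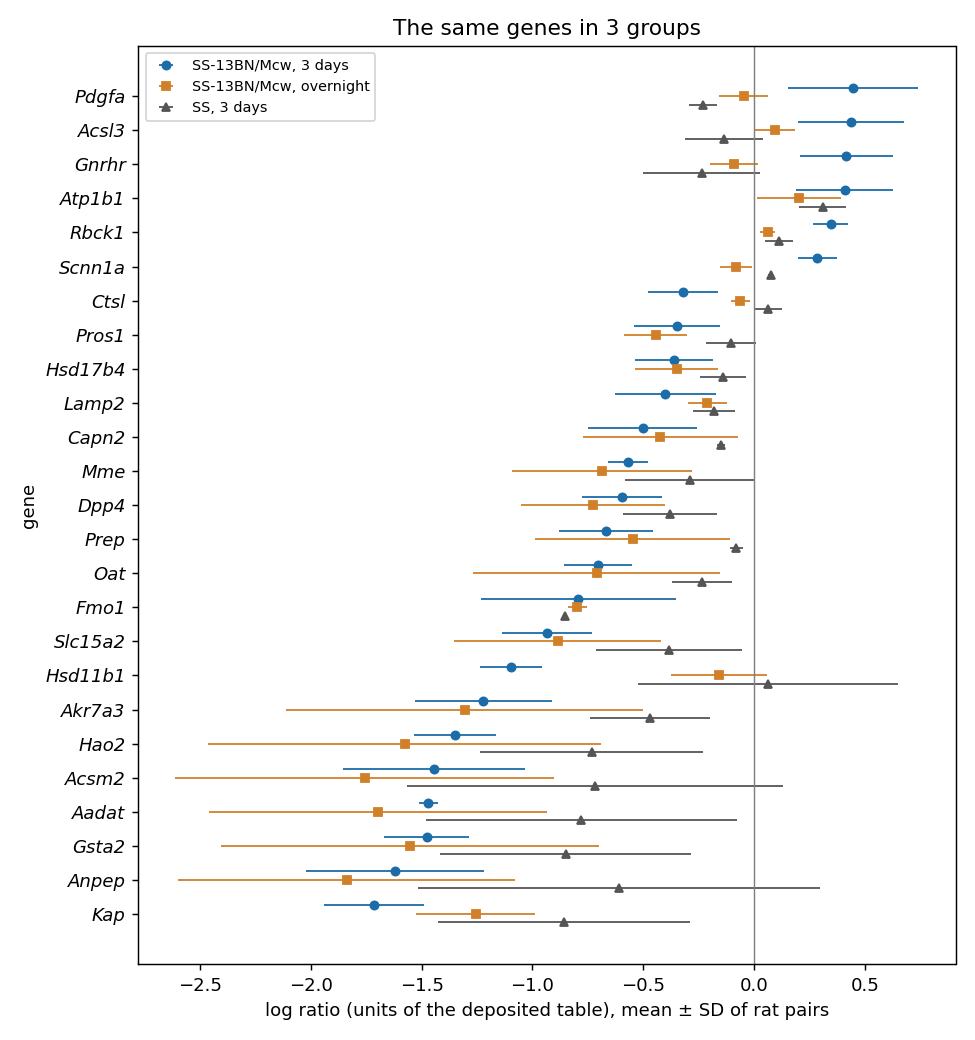
Mean ± SD over rat pairs of the 25 named genes past the threshold in SS-13BN/Mcw at 3 days, in that group, in SS-13BN/Mcw overnight and in SS at 3 days, in units of the deposited table. Proximal tubule genes are negative in all 3 groups, Hsd11b1 averages -1.10 in the first group, -0.16 in the second and 0.06 in the third, and a point without a bar is a single pair.

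The last comparison asks where SS-13BN/Mcw and SS differ at 3 days. Pdgfa differed by 0.68 ± 0.13 and Hsd11b1 by -1.16 ± 0.23 (SS-13BN/Mcw minus SS, ± SE), yet limma called 0 of 824 probes (0 percent; 69 or 8.37 percent with an unadjusted p under 0.05). With arrays scaled to one spread 7 passed, with quantile normalization 5 and in a fit to single arrays 7. Here too the single-array p-values count both swapped arrays of a pair and rest on no further rats. The slides of the SS arrays were numbered apart from those of SS-13BN/Mcw at 3 days, so slide order and strain cannot be told apart.

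Pdgfa had -0.30, -0.21 and -0.18 in SS and was positive in every SS-13BN/Mcw pair (adjusted p = 0.114 for the difference, and 0.00342 in the fit to single arrays). Hsd11b1 had 0.40, 0.39 and -0.62 in SS, where 1 pair was negative like those of SS-13BN/Mcw and the others positive (adjusted p = 0.114, and 0.00271 in the fit to single arrays). Gnrhr differed by 0.65 ± 0.14 and Acsl3 by 0.57 ± 0.13, with SS means of -0.24 and -0.14 (adjusted p = 0.116 and 0.137). Sdc4, a heparan sulfate proteoglycan, had 0.15 in SS-13BN/Mcw and -0.14 in SS, a difference of 0.29 ± 0.08, and Gcgr differed by 0.51 ± 0.15 (adjusted p = 0.282 and 0.328). Of the positive calls of the strain, Atp1b1 had like values in SS, at 0.35, 0.19 and 0.39.

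The 4 other negative differences were in genes of matrix and microtubules. Nid1, a basement membrane protein, had 0.68, 0.26 and 0.24 in SS and -0.11, -0.19 and -0.22 in SS-13BN/Mcw, a difference of -0.57 ± 0.12 (adjusted p = 0.116). Serpinh1 differed by -0.55 ± 0.14, Tubb5 by -0.50 ± 0.12 and Stmn1, a regulator of microtubules, by -0.71 ± 0.20 (adjusted p = 0.193, 0.137 and 0.282). Stmn1 was spread within SS-13BN/Mcw, at 0.18, 0.19 and -0.53. Among proximal tubule genes the SS pairs were uneven: Anpep had -1.66, -0.07 and -0.10 and Aadat -1.57, -0.51 and -0.25, where pair 1 was as low as in SS-13BN/Mcw. The brush border list had a median of -0.34 in SS at 3 days over 8 genes, and the differences of Kap (-0.86 ± 0.33) and Anpep (-1.01 ± 0.45) did not pass (adjusted p = 0.528 and 0.565).

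**Figure D5:**
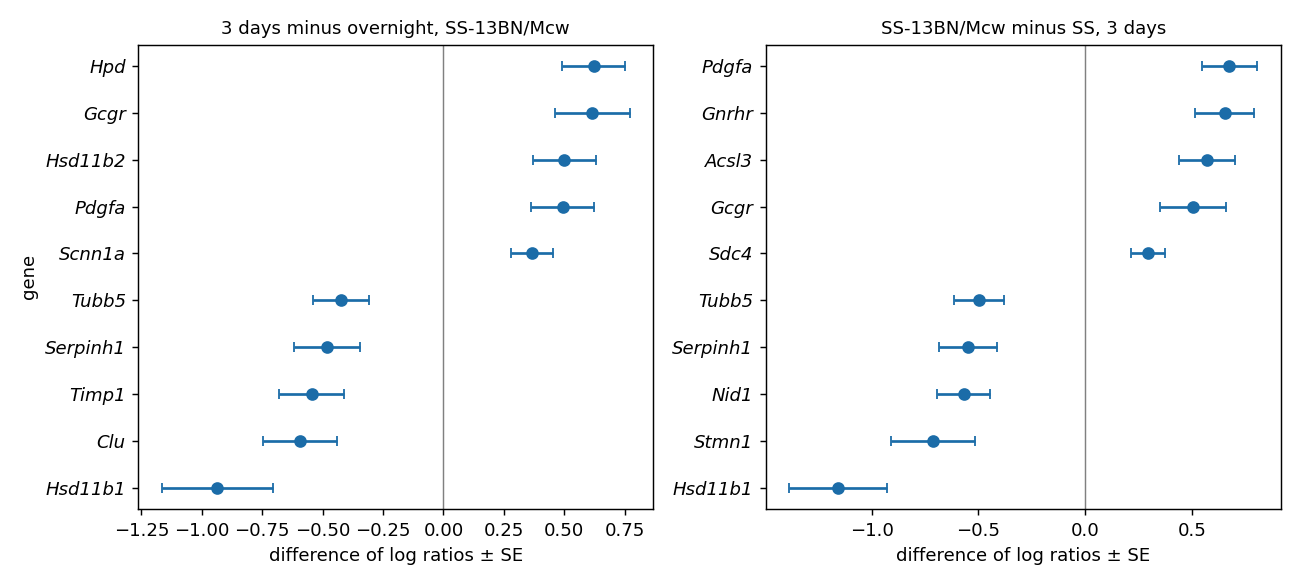
Difference of log ratios ± SE, in units of the deposited table, for the 5 genes with the smallest p on each side, for 3 days minus overnight in SS-13BN/Mcw (left) and for SS-13BN/Mcw minus SS at 3 days (right). None passed the adjusted threshold, and Hsd11b1 has the most negative difference in both panels.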

How the data were processed

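Total RNA of rat kidney was measured on cDNA arrays with dyes Cy5 (channel 1) and Cy3 (channel 2). The deposited values are log ratios, 1 per probe and array. Not given in the sources used here are their base, their numerator and the authors' earlier steps. Arrays were median centred, and the 2 arrays of a pair were averaged without turning signs. Values were fitted with limma 3.58.1 (R 4.3.3, statmod 1.5.0), a coefficient for each of the 4 groups and a spread shared by all 12 pairs (8 degrees of freedom left), with eBayes. Tests were two-sided, with Benjamini-Hochberg adjustment at 0.05 over the probes tested. Tables and figures used Python 3.11.15. Probes were named through the array's annotation where it gave 1 symbol (1426 of 1766 measured), updated by gene number for 1421. Titles give the same low-numbered rats to both times, and deviations from the group means correlated at 0.259 to 0.389 between same-numbered pairs, so the block fit stands beside results it changes.

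Named were all genes past the threshold, the 10 next by p on each side with the same sign in every pair, the 5 smallest p on each side for each difference, and up to 5 members of each list; remaining list members were named after their values were seen. The 31 gene lists, their members and the tests were chosen with earlier results of these data known. Simulated data had 200 changed probes, with noise drawn independently for each pair. Over the 907 probes of the 3-day test, changes of 0.5 were recovered in 86 percent and of 1 in 98 percent. For the differences it was 61 and 92 percent against overnight (897 probes) and 70 and 94 percent against SS (824 probes). The real 3-day test called 27 probes. With fewer changed probes the adjusted threshold is stricter, so these shares do not give the recovery in the real data.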

Additional observations from a re-analysis of the deposited data

How the results depend on the processing

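Counts of calls and named genes were recomputed with values as deposited, arrays scaled or quantile normalized, arrays turned by dye, a fit to single arrays, the groups compared alone, other filters on missing values, another moderation, a replicate block and each pair left out. List medians were recomputed with values as deposited, with every probe on its own and without each pair. For SS-13BN/Mcw at 3 days the count of 27 became 61 (scaled), 64 (quantile), 58 (single arrays) and 299 (turned by dye, 144 positive, which holds 12 of the 27). The scaled, quantile and single-array fits held all 27. Leaving out 1 pair gave 0 to 50 calls. With the replicate block 27 passed, 26 of them shared; Gnrhr was lost and Amacr gained, and the block changed no other call. The fits with fewer pairs of the group also test fewer probes.

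For 3 days minus overnight the count of 0 became 8 in the fit to single arrays and 0 to 1 without 1 pair; with the replicate block it was 0 (156 at an unadjusted p under 0.05, against 101). For SS-13BN/Mcw minus SS it became 7 (scaled), 5 (quantile), 7 (single arrays), 1 (1 orientation enough) and 0 to 1 without 1 pair.

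Among named genes, signs reversed under no alternative other than turning arrays by dye, which would be the right reading if the deposited ratios ran from channel to channel. Against 0 the turned values were Kap 0.0858, Hsd11b1 0.257, Rbck1 -0.251, Akr7a3 0.0769, Dpp4 0.0484, Hao2 0.140, Prep 0.0710, Oat 0.204, Acsl3 -0.0489, Capn2 0.160, Fmo1 0.00339, Gnrhr -0.216, Ddit3 -0.0898 and Glul 0.182. For 3 days minus overnight they were Hsd11b1 0.182, Scnn1a -0.0276 and Clu 0.128. For SS-13BN/Mcw minus SS they were Hsd11b1 0.202, Acsl3 -0.202, Gnrhr -0.194, Gcgr -0.0523, Tubb5 0.0258, Nid1 0.0123 and Stmn1 0.0447. List medians near 0 changed sign without a pair: thick ascending limb to -0.03 (without pair 3), ribosomal proteins to -0.002 (pair 1), and fatty acid oxidation to 0.01 (pair 2) and 0.03 (pair 3). Signal over background was not used here because the table holds ratios only.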
